A study of Mus musculus with 6 samples.

Results

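Long noncoding RNAs were examined in mouse Th17 cells, a class of CD4 helper T cell named for the interleukin 17 it makes. A transcript was included when its annotated type was long intergenic (lincRNA), antisense to another gene, bidirectional promoter or sense intronic, and when it was listed above 0 FPKM in at least 3 of the 6 libraries. FPKM counts the fragments assigned to each kilobase of a transcript, scaled to the size of the library, so levels can be compared between transcripts of different length. Of 73900 transcripts in the table, 3450 had one of these types and 2084 passed, coming from 1565 genes. The 2084 comprised 852 lincRNA, 1011 antisense, 131 bidirectional promoter and 90 sense intronic transcripts, and 58651 transcripts of any type were above 0 in as many libraries. The levels that chose these transcripts are given below as a description. At the edge of the rule, the 372 transcripts listed above 0 in exactly 3 libraries had a median level of 0.0399 FPKM, and the 473 listed above 0 in exactly 2, which were left out, had a median of 0.0216 FPKM.

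The study compared 3 libraries of Th17 cells in which Sirt2, which encodes a NAD-dependent deacetylase, was knocked out with CRISPR/Cas9 (Sirt2 KO, replicates 1 to 3) with 3 libraries of control Th17 cells (Sirt2 WT, replicates 1 to 3). All 6 samples received antibodies to CD3 at 0.5 µg/mL and to CD28 at 1 µg/mL for 72 hours before RNA was taken, and the treatment label of both groups reads untreated. The labels give no strain, age, guide, clone or Cas9 source, nor whether a replicate was its own culture or animal. The p-values therefore reflect variation among these 6 libraries alone, and that variation may be technical. The RNA was bulk RNA, in which fewer cells of a type and less RNA per cell cannot be told apart.

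Long noncoding RNAs act as RNA rather than as templates for protein. Some stay in the nucleus: Malat1 gathers at nuclear speckles, Neat1 is the scaffold of paraspeckles, and Xist coats and silences an X chromosome in female cells. Others are spliced in the nucleus to release small RNAs from their introns or exons, as the snoRNA host genes (Gas5 and the Snhg family) and the microRNA host genes (Mir155hg, Mir17hg) do. Antisense and bidirectional promoter transcripts start beside or within a coding gene on the opposite strand, and many are short-lived and scarce.

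Several of these RNAs carry sequence elements tied to how they work, shown here because the RNAs are described below. All transcript sequences are from GENCODE M21 on GRCm38, 5′ to 3′ on the strand of the RNA. The 3′ regions of Malat1 and Neat1 contain U-rich runs and an A-rich run that fold into a protective triple helix. They share 3 identical runs of 13, 16 and 11 bases, in capitals. In Neat1 the last run ends the transcript model (bases 20672 to 20771 of the model, chr19:5824708-5824807, minus strand). In Malat1 (bases 6598 to 6753, chr19:5795920-5796075, minus strand) the model continues for 292 bases past the last run, beginning with a tRNA-like RNA that is cut off during maturation.
Malat1: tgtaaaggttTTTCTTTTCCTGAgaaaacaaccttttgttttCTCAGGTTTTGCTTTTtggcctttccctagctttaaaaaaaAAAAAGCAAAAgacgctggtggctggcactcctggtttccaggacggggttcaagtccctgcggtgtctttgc
Neat1: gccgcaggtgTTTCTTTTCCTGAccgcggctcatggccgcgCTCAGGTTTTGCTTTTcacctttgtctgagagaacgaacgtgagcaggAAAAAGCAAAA

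Xist carries the A repeat near its 5′ end, the element needed for silencing. The letters GGATACCTG, searched on the RNA strand only, occurred 6 times in Xist and were found in 10 of the 2046 long noncoding transcripts with a sequence in the reference (0.489%), with no other transcript holding more than 1. Repeat units 1, 3 and 6 (chrX:103482875-103482900, chrX:103482707-103482732 and chrX:103482543-103482568, minus strand) are shown with these letters in capitals.
Xist unit 1: tgcccatcggggccacGGATACCTGt
Xist unit 3: agcccatcggggccatGGATACCTGc
Xist unit 6: tgcccatcggggctgtGGATACCTGc

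The cytoplasmic RNA 2900097C17Rik, the mouse Norad, binds Pumilio proteins through the letters TGTANATA. They occurred 11 times in its 4915 bases, against at least once in 12.8% of the 2046 transcripts of any length; 2 transcripts, 2900097C17Rik included, held 11 or more. A stretch with a pair of neighbouring matches (chr2:156390502-156390558, minus strand) is shown. Oip5os1, known as Cyrano, holds a site that pairs with the microRNA miR-7 over its seed and along most of its 3′ part. In capitals are the 7 bases that match the seed and a 13-base run that pairs with the rest (chr2:119602134-119602164, plus strand). The 7 seed letters GTCTTCC alone occurred in 11.4% of the transcripts.
2900097C17Rik: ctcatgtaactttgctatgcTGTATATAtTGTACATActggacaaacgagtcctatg
Oip5os1: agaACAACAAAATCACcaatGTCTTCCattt

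The microRNA hosts expressed here release mature microRNAs, which were not measured here. The sequences below, from RefSeq on GRCm38.p6, show the products with the seed (bases 2 to 8) in capitals. The product of Mir155hg supports the inflammatory T helper responses, and those of Mir17hg support T cell expansion. The Mir17hg products shown, 1 arm of each hairpin, fall into 4 seed groups (the opposite arms, not shown, have other seeds): miR-17-5p and miR-20a-5p share AAAGUGC, miR-18a-5p has AAGGUGC, miR-19a-3p and miR-19b-3p share GUGCAAA, and miR-92a-3p has AUUGCAC.
miR-155-5p: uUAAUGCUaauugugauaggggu
miR-17-5p: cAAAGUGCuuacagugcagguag
miR-20a-5p: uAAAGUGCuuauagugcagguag
miR-18a-5p: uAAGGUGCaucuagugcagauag
miR-19a-3p: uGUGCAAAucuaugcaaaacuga
miR-19b-3p: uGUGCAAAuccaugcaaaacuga
miR-92a-3p: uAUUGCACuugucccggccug

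Finally, 2 transcript models of Dubr are shown because their levels stood in opposite order in the groups (below). The 3-exon model holds 273 bases (chr16:50727619-50727891, minus strand) that are spliced out of the 4-exon model, and the 4-exon model holds a 125-base exon (chr16:50726874-50726998, minus strand) that the 3-exon model lacks. Capitals mark the first and last 20 bases of each stretch.
Dubr 3-exon only: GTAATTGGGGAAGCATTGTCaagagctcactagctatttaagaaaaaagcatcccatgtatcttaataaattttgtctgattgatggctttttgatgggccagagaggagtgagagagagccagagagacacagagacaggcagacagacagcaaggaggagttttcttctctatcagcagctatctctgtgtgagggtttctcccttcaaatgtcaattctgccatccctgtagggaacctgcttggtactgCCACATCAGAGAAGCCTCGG
Dubr 4-exon only: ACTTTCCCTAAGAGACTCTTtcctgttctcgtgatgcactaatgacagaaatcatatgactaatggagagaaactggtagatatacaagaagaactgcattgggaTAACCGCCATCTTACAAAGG

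The targeted gene checks the labels. Sirt2 stood at 11.2, 13.5 and 10.9 FPKM in the KO libraries and at 20.7, 19.9 and 21.9 FPKM in the WT libraries, a log2 fold change of -0.76 (SE 0.092, adjusted p = 0.0429 by limma). The Th17 marker genes summed to 296 to 454 FPKM (KO) and 459 to 479 FPKM (WT), so every KO sum was the lower. Most of that sum was Il17f, at 202, 350 and 244 FPKM in KO and 329, 343 and 357 FPKM in WT. Of the 8 Th17 genes, 1 (Il22) lay higher in KO without overlap and 0 lay lower. T cell markers summed to 1188 to 1310 FPKM (KO) and 1170 to 1224 FPKM (WT). Markers of other cells were low but differed between groups: 5 of the 8 CD8 T and NK genes with a row were higher in every KO than in any WT library (sums 24.5 to 27.4 against 9.02 to 9.93 FPKM, mostly Gzmb), 6 of 12 myeloid genes (39.4 to 41.1 against 30.2 to 31.4 FPKM) and 4 of 8 B cell genes (22.8 to 27.7 against 19.1 to 19.7 FPKM). None of these markers was at 0 in all libraries. Over all genes tested, 4.28% lay higher in KO without overlap. Several of the markers counted stood below 1 FPKM and were not tested. An example is Itgam, at 0.0882, 0.134 and 0.0982 FPKM in KO and 0.0246, 0.0236 and 0.0345 FPKM in WT. The libraries of both groups also differed among themselves with gene length. The difference of each gene from the WT mean correlated with length at Spearman -0.33 and -0.47 in KO replicates 1 and 2 and at 0.23 in KO replicate 3, across 10873 genes. In WT replicates 1 to 3 these correlations were 0.25, 0.01 and -0.24. Over the 184 long noncoding genes tested, the correlations were -0.06, 0.01 and 0.08 in the KO libraries and 0.09, -0.05 and -0.0004 in the WT libraries. With the length trend removed from each library, 4 long noncoding genes were called instead of 3 and 16 of all genes instead of 12, and values that moved are given below. The part of the other cells' markers in the results was not tested.

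Long noncoding RNAs were a small and uneven share of the transcriptome of these cells. They made up 0.442, 0.400 and 0.472% of the summed FPKM in the KO libraries and 0.471, 0.455 and 0.445% in the WT libraries, so the groups overlapped. The median transcript stood at 0.138 FPKM, against 1.28 FPKM for protein coding transcripts chosen by the same detection rule. A mean of 1 FPKM or more was reached by 237 of the 2084, and 10 FPKM or more by 33. The 10 most abundant held 35.9% of all long noncoding FPKM, and the 20 most abundant 48.4%. By type, the median level was 0.170 FPKM for lincRNA, 0.119 for antisense, 0.137 for bidirectional promoter and 0.0991 for sense intronic transcripts.

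The transcripts were short and simple in structure. Their median length was 1174.5 bases against 2266 for protein coding transcripts, and 21.8% had a single exon, against 2.08%. A polyadenylation signal, AATAAA or ATTAAA on the RNA strand, lay in the last 50 bases of 49.9% of the long noncoding and 60.7% of the protein coding models with a sequence.

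The transcript with the highest level was AI506816 on chromosome 5, an RNA of unassigned function whose gene holds a snoRNA gene. It stood at 227.7, 233.4 and 157.2 FPKM in KO and at 191.9, 191.2 and 191.1 FPKM in WT. The 3 WT libraries were within 1 FPKM of one another, whereas KO replicates 1 and 2 lay above and KO replicate 3 below them. Next came a 12-exon transcript of Gas5, an RNA that accumulates in growth-arrested T cells and can bind the glucocorticoid receptor, at 107.5, 90.4 and 139.0 FPKM in KO and 107.4, 117.8 and 105.3 FPKM in WT. AI662270 followed at 97.5, 82.2 and 79.0 FPKM in KO and 82.5, 87.4 and 85.6 FPKM in WT.

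The antisense snoRNA host Zfas1 stood at 84.4, 64.8 and 65.1 FPKM in KO and 55.5, 63.4 and 54.0 FPKM in WT. Every KO library was above every WT library for this transcript (log2 fold change 0.30, adjusted p = 0.885 by limma), while the whole Zfas1 gene overlapped between groups. AW112010, an RNA induced in inflammatory T cells and macrophages, stood at 42.7, 39.2 and 65.7 FPKM in KO and 44.5, 47.2 and 46.8 FPKM in WT, with KO replicate 3 alone above WT. The mouse Norad 2900097C17Rik, whose Pumilio motifs are printed above, was among the steadiest, at 40.6, 38.2 and 44.4 FPKM in KO and 42.8, 40.5 and 39.8 FPKM in WT; the fitted log2 fold change of its gene was 0.00 with a 95% interval from -0.17 to 0.17. Gm10076, a single-exon RNA, varied more widely in KO, at 50.004, 18.1 and 57.5 FPKM in KO and 58.3, 39.9 and 47.6 FPKM in WT.

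**Figure D1:**
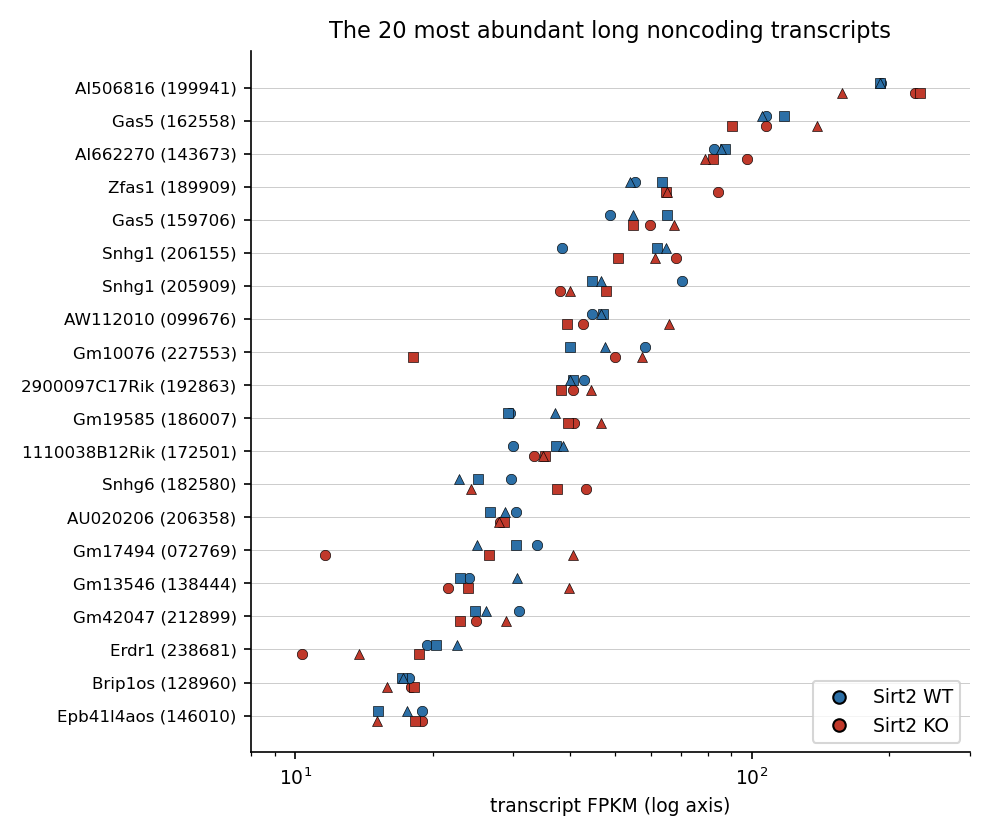
The 20 long noncoding transcripts of highest mean level, with transcript FPKM on a log axis and the last 6 digits of each transcript's identifier in brackets; each point is 1 library (circle, square and triangle for replicates 1, 2 and 3; red for Sirt2 KO, blue for Sirt2 WT). For AI506816 the 3 WT points lie together at 191.1 to 191.9 FPKM, with the KO points on both sides of them at 157.2 to 233.4 FPKM.

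To compare Sirt2 KO with Sirt2 WT, log2(FPKM + 1) was fitted with limma over all features that reached 1 FPKM in at least 3 libraries. In the fit of 19184 transcripts, 261 of the 2084 long noncoding transcripts were tested. None was called at an adjusted p under 0.05, where 0.0417% of all transcripts were called. The smallest adjusted p was 0.0656, for Gm49980, and 23 of the 261 (8.81%) had an unadjusted p under 0.05, against 5.57% of all. In 17 (6.51%) every KO library lay above every WT library and in 27 (10.3%) every KO library lay below, against 4.71% and 6.36% of all transcripts tested. Of the 261, 4 stayed below 1 FPKM throughout the WT libraries and 5 throughout the KO libraries. Such transcripts entered the fit through the other group alone, so their place in these counts is a description. The median log2 fold change was -0.07, against -0.03 over all transcripts.

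The 261 tested transcripts were 171 lincRNA, 71 antisense, 13 bidirectional promoter and 6 sense intronic. Of the 23 at an unadjusted p under 0.05, 20 were lincRNA. The median log2 fold change was -0.06 for lincRNA, -0.10 for antisense, -0.09 for bidirectional promoter and 0.15 for sense intronic transcripts.

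In the fit of 10873 genes, 184 genes with a listed long noncoding transcript were tested, 162 of which held only long noncoding types. Gm49980, Gm42031 and Gm46620 rose in Sirt2 KO and none fell: 3 of 184 called (1.63%), against 0.11% of all genes in either direction, 0.092% called higher and 0.0184% called lower. Gm42031 entered the fit through the KO libraries alone, so its place in this count is a description; of the 184 genes, 2 stayed below 1 FPKM throughout the WT libraries and 2 throughout the KO libraries. An unadjusted p under 0.05 was reached by 24 (13.04%), against 5.61% of all genes. Every KO library lay above every WT library in 13 of the 184 (7.07%) and below in 21 (11.4%), against 4.28% and 6.88% of all genes. The median log2 fold change was -0.08, against -0.03 over all genes. The called set depended on single libraries: leaving out KO replicate 1 or WT replicate 2 gave 0 calls, leaving out KO replicate 2, WT replicate 1 or WT replicate 3 gave 1, and leaving out KO replicate 3 gave 25 (8 higher and 17 lower, 13.6% against 10.2% of all genes, of which 4.09% were higher and 6.08% lower).

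**Figure D2:**
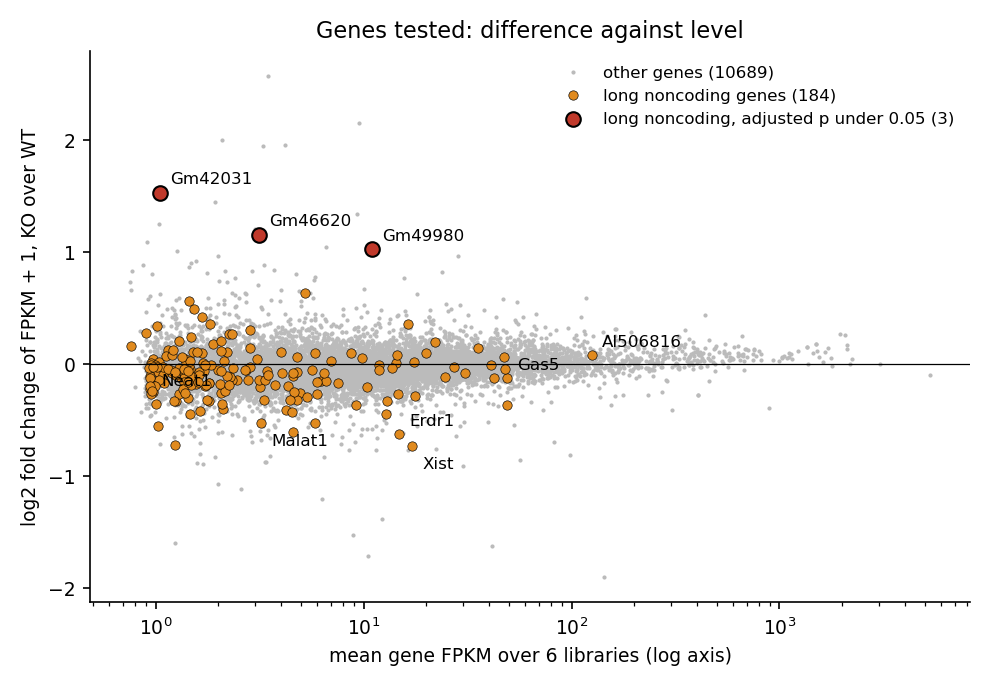
Each point is 1 of the 10873 genes tested, with its mean gene FPKM over the 6 libraries (log axis) against its log2 fold change of FPKM + 1, KO over WT; long noncoding genes are orange and the 3 called are red. Gm42031, Gm46620 and Gm49980 stand above 1 on the fold change axis, and Xist and Erdr1 are among the lowest long noncoding genes.

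Gm49980 is a 2-exon lincRNA on the plus strand of chromosome 18 (30267249 to 30272133), 614 bases past the end of Pik3c3, a lipid kinase gene on the same strand. It stood at 14.6, 15.5 and 15.1 FPKM in KO and at 7.14, 6.26 and 7.29 FPKM in WT. All KO libraries were above all WT libraries, with means of 15.1 ± 0.459 and 6.90 ± 0.558 FPKM (SD, n = 3 each), and the gene rose by a log2 fold change of 1.03 (SE 0.079, adjusted p = 0.0067 by limma). Pik3c3 itself stood at 10.7, 11.1 and 13.6 FPKM in KO and 11.5, 10.6 and 11.4 FPKM in WT, differing by 0.07 (log2, adjusted p = 0.902). The call for Gm49980 was lost without KO replicate 1 (adjusted p = 0.0528) and without WT replicate 2 (adjusted p = 0.0510).

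Gm42031 is a 2-exon lincRNA on the minus strand of chromosome 8 (85125872 to 85132289). The nearest coding genes were Zfp791, 2777 bases away and at 0.0145 FPKM or less in every library, and Man2b1, with a log2 fold change of -0.04. Its levels were 2.39, 2.16 and 1.59 FPKM in KO and 0.0305, 0.0363 and 0.0687 FPKM in WT. It was near absent from every WT library and passed the low-value filter through the KO libraries alone. The log2 fold change of FPKM + 1 was 1.53 (SE 0.131, adjusted p = 0.0068), a scale that understates the difference of a gene at this level; with 0.1 added instead of 1 it was 3.87. Leaving out any 1 library other than KO replicate 3 raised the adjusted p to just above 0.05, at most 0.0719.

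Gm46620 is a 2-exon lincRNA on the plus strand of chromosome 18 (82694287 to 82701336), 1404 bases from Zfp236 on the other strand. It stood at 4.31, 4.34 and 5.52 FPKM in KO and 1.705, 1.23 and 1.76 FPKM in WT. The groups did not overlap, and the log2 fold change was 1.16 (SE 0.128, adjusted p = 0.0278). The log2 fold change of neighbouring Zfp236 was -0.09 (adjusted p = 0.894). Leaving out any 1 library other than KO replicate 3 raised the adjusted p of Gm46620 to between 0.103 and 0.153, and testing all genes above 0 FPKM in at least 3 libraries gave 0.0987. Each of these 3 genes has 1 listed transcript with the same values, and in the larger transcript fit their adjusted p-values were 0.0656, 0.0903 and 0.201.

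**Figure D3:**
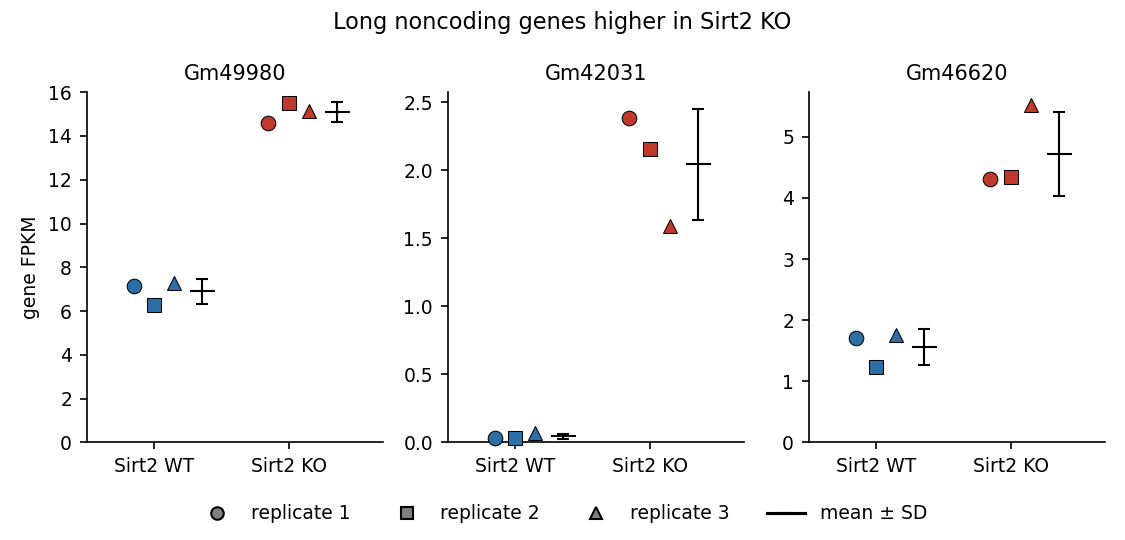
Gene FPKM of Gm49980, Gm42031 and Gm46620 in each library (points, replicates 1 to 3 by shape) with the group mean and SD (black bar). In each panel all 3 Sirt2 KO points lie above all 3 Sirt2 WT points, and the WT points of Gm42031 lie between 0.0305 and 0.0687 FPKM.

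Dubr, an intergenic RNA known to regulate its neighbour Dppa2 in muscle and stem cells, differed by transcript and not by gene. The 3-exon transcript stood at 2.38, 1.81 and 3.23 FPKM in KO and at 0, 0.0646 and 0 FPKM in WT. The 4-exon transcript stood at 0.169, 0 and 0.0564 FPKM in KO and at 2.51, 1.65 and 2.13 FPKM in WT. Of the FPKM given to this pair, the 3-exon transcript held 93.4, 100 and 98.3% in KO and 0, 3.77 and 0% in WT, so the assignment was almost complete in both groups and opposite. Whole-gene Dubr overlapped between groups, at 2.48, 1.94 and 3.61 FPKM in KO and 2.84, 3.13 and 2.28 FPKM in WT (log2 fold change -0.05, 95% interval -0.45 to 0.36). Each transcript reached 1 FPKM only in the group where it is high, so its limma values are a description: a log2 fold change of 1.75 (adjusted p = 0.0918) for the 3-exon transcript and -1.52 (adjusted p = 0.102) for the 4-exon transcript. The authors' deposited table lists q-values of 4.17e-06 and 0.000927 for them.

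**Figure D4:**
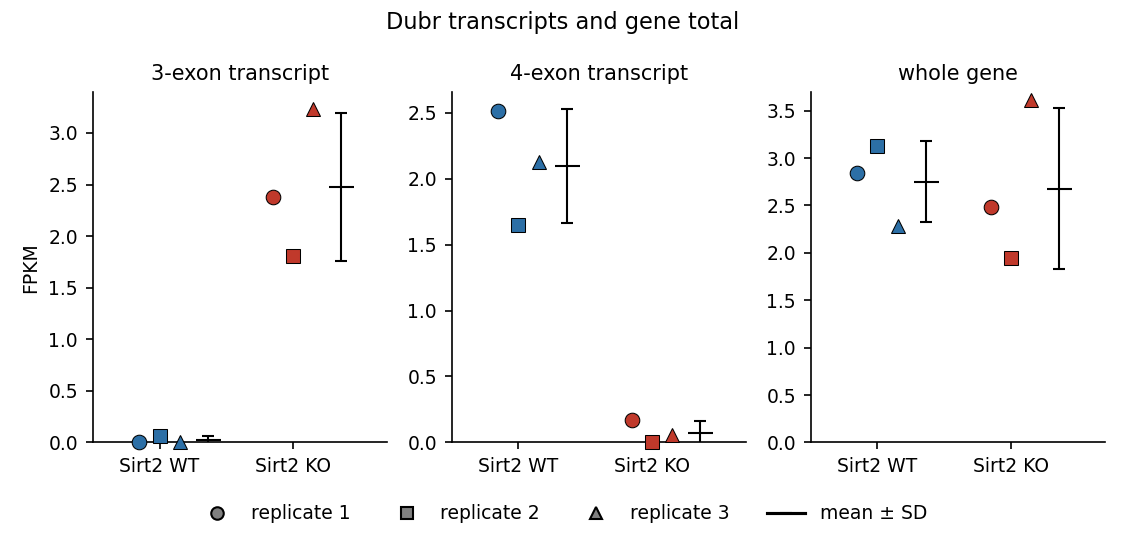
FPKM of the 3-exon and 4-exon Dubr transcripts and of the whole gene in each library (points) with the group mean and SD (black bar). The transcripts are at or near 0 in opposite groups, while the gene totals overlap between 1.94 and 3.61 FPKM.

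The transcript listed for a gene also differed between libraries of one group, as for Mir155hg. Its 2-exon transcript of 1264 bases stood at 10.5, 10.3 and 15.8 FPKM in KO and 20.8, 13.3 and 0 FPKM in WT. In the library where it was listed at 0, WT replicate 3, a second model with the same 3′ end but an earlier start, of 1362 bases, was listed at 15.5 FPKM, and that model was at 0 in the other 5 libraries. The authors' deposited table gives the second model a q-value of 3.92e-08, from 1 library. Of the 261 long noncoding transcripts tested, 19 (7.28%) were listed at 0 in at least 1 library, against 5.26% of the protein coding transcripts tested.

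The levels of a few other transcripts stood apart between groups without passing the test. One 4-exon transcript of A430093F15Rik, a lymphocyte RNA beside Cd5 and Cd6, stood at 10.2, 12.3 and 10.7 FPKM in KO and 4.98, 7.65 and 6.79 FPKM in WT (log2 fold change 0.71, adjusted p = 0.642), with a whole-gene log2 fold change of 0.01. A transcript of 4933404O12Rik stood at 3.01, 2.12 and 2.88 FPKM in KO and 4.32, 4.33 and 3.82 FPKM in WT (adjusted p = 0.828). The whole gene overlapped between groups, with a log2 fold change of -0.06. Another of its transcripts, which did not reach 1 FPKM in 3 libraries, stood at 0.0606, 1.65 and 2.29 FPKM in KO and 0.00579, 0 and 0 FPKM in WT. A short Snhg1 transcript of 408 bases was listed at 1.17, 1.34 and 1.59 FPKM in KO and at 0, 0.346 and 0 FPKM in WT (adjusted p = 0.354, a description because it reached 1 FPKM in KO alone), beside whole-gene Snhg1 levels of 38.4 to 46.6 FPKM.

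Of the 6 nuclear RNAs tested, 5 had a lower fitted level in Sirt2 KO, and none passed the test. The fitted level was also lower for 131 of the 184 long noncoding genes and 6382 of the 10873 genes. Malat1, a single-exon RNA of 6983 bases (chr19:5795690-5802672, minus strand), stood at 2.44, 1.69 and 3.32 FPKM in KO and at 4.51, 3.47 and 3.80 FPKM in WT. All KO libraries were below all WT libraries, KO replicate 3 only just so, with means of 2.48 ± 0.816 and 3.92 ± 0.533 FPKM (SD, n = 3 each). The log2 fold change was -0.52 (SE 0.176, adjusted p = 0.843 by limma, range over other settings 0.0291 to 1.00). An exact permutation test (two-sided) returned p = 0.1, and no smaller value is possible with 3 libraries a group. Without KO replicate 3 the log2 fold change was -0.69 with an adjusted p of 0.0291, a setting under which 10.2% of all genes were called.

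Neat1 was scarcer per kilobase. The 20771-base model of its long form, the one that builds paraspeckles, stood at 0.609, 0.552 and 1.04 FPKM in KO and 1.19, 1.01 and 1.05 FPKM in WT. KO replicates 1 and 2 were low and KO replicate 3 lay within the WT range. Reads of any shorter form within this model could add to these values. At the gene level the log2 fold change was -0.27 (adjusted p = 0.843 by limma), -0.12 with the length trend removed and -0.53 with 0.1 added in place of 1; an exact permutation test (two-sided) gave 0.3. A 4-exon Neat1 transcript of 1030 bases was listed at 0, 0 and 0.0980 FPKM in KO and 0.289, 0.0479 and 0 FPKM in WT, too low to be tested. The mature 3′ ends of Malat1 and of the long Neat1 form are the genome-encoded A-rich runs shown above rather than a poly(A) tail. How RNA was selected for the libraries is not stated in the labels.

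Xist was present in all 6 libraries, at 10.8, 8.16 and 20.3 FPKM in KO and 26.5, 19.4 and 17.8 FPKM in WT at the gene level. KO replicate 3 again lay inside the WT range. The log2 fold change was -0.73 (95% interval -1.42 to -0.05, adjusted p = 0.843), with an exact permutation p (two-sided) of 0.3. Without KO replicate 3 the values were -1.08 and an adjusted p of 0.0188, the only 1 of 14 other settings with a call for Xist. Under that setting 10.2% of all genes were called. Of the other nuclear RNAs tested, Tug1 stood at 4.88 to 7.11 FPKM (KO) and 6.44 to 6.62 FPKM (WT), Peg13 at 1.39 to 1.66 and 1.83 to 2.07 FPKM without overlap, and Pvt1, a neighbour of Myc, at 1.21 to 1.96 and 1.17 to 1.54 FPKM. A 9-exon Pvt1 transcript stood at 1.85, 1.92 and 2.23 FPKM in KO and 0.609, 0.682 and 1.58 FPKM in WT. Its groups did not overlap (log2 fold change 0.65, adjusted p = 0.870 by limma). Across the list of nuclear RNAs, 6 of 20 were tested, 0 were called (the smallest unadjusted p was 0.0193 and 2 were under 0.05), 2 lay lower without overlap (6.88% of all genes did) and the median log2 fold change was -0.23, beside -0.03 over all genes.

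**Figure D5:**
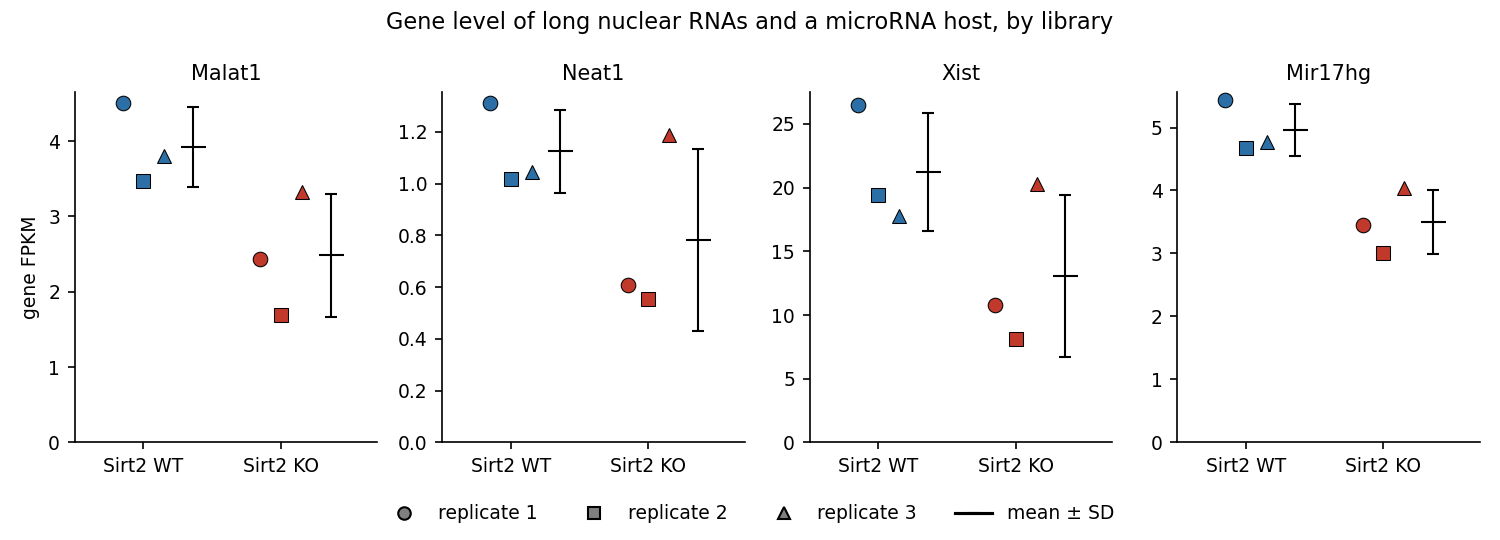
Gene FPKM of Malat1, Neat1, Xist and the microRNA host Mir17hg in each library (points, replicates 1 to 3 by shape) with the group mean and SD (black bar). KO replicates 1 and 2 are the lowest points in all 4 panels, and KO replicate 3 (red triangle) lies within the WT range for Neat1 and Xist.

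The genes that encode proteins of the bodies these RNAs occupy were tested in the same fit. Their RNA was measured, not the proteins. None of the 22 paraspeckle and speckle genes was called (2 had an unadjusted p under 0.05), the median log2 fold change was -0.07, and 6 lay lower and 1 higher without overlap (6.88% and 4.28% of all genes). The genes of the core paraspeckle proteins, Nono (141 to 146 FPKM in KO, 138 to 141 FPKM in WT) and Sfpq (102 to 113 and 113 to 116 FPKM), had log2 fold changes of 0.04 and -0.07. Pspc1, the gene of the other core paraspeckle protein, stood at 14.3, 13.9 and 14.6 FPKM in KO and 15.9, 15.8 and 16.2 FPKM in WT, without overlap (-0.15, unadjusted p = 0.0409, adjusted p = 0.843). Pnisr, a speckle protein gene, had the smallest unadjusted p of that list (0.0178), at 4.86, 4.17 and 5.23 FPKM in KO and 7.16, 5.89 and 5.72 FPKM in WT. Of 27 tested genes for nuclear RNA decay and 3′ end processing, 0 were called (0 also at an unadjusted p under 0.05), with a median of -0.01. Of 15 genes for nonsense-mediated decay, which clears the spliced snoRNA host transcripts, 0 were called (1 at an unadjusted p under 0.05), with a median of -0.08.

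The snoRNA hosts stood high among these genes. Their introns release the small nucleolar RNAs that guide modification of ribosomal RNA. By annotation, 26 long noncoding genes held a snoRNA gene; their median level was 5.13 FPKM, against 0.127 FPKM for the other long noncoding genes, and 18 were tested. None was called (the snoRNA host list had 3 of 14 at an unadjusted p under 0.05, a level reached by 5.61% of all genes). The median log2 fold change was -0.08, and 5 of the 18 lay lower in KO without overlap, as did 6.88% of all genes. Gas5 as a gene stood at 47.7, 43.4 and 48.6 FPKM in KO and 51.2, 51.5 and 49.8 FPKM in WT (log2 fold change -0.13, adjusted p = 0.843). Snhg5 stood at 16.3, 14.1 and 17.3 FPKM in KO and 19.95, 17.98 and 20.66 FPKM in WT (-0.28, adjusted p = 0.843; 0.0473 without KO replicate 3).

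Snhg16, Snhg17 and Snhg4 were the other hosts whose groups did not overlap, with log2 fold changes of -0.25, -0.16 and -0.29 (for Snhg4, the lincRNA entry of ENSMUSG00000117869, since another gene ID carries the same name). Snhg16 stood at 4.89, 4.29 and 4.10 FPKM in KO and 6.03, 5.46 and 4.92 FPKM in WT. Snhg6 and Zfas1 had the opposite sign, 0.20 and 0.15, with overlapping groups, and Snhg12 hardly differed, at 12.9 to 14.2 FPKM (KO) and 13.4 to 14.5 FPKM (WT). A 3-exon Snhg6 transcript of 816 bases differed from its gene in sign. That transcript stood at 8.60, 6.47 and 6.80 FPKM in KO and 9.73, 9.64 and 8.71 FPKM in WT, without overlap (-0.33, adjusted p = 0.885 by limma).

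All 3 microRNA hosts tested had lower means in KO, and none was called. An unadjusted p under 0.05 was reached by 2 of them, and by 5.61% of all genes. Of the 3, 2 lay lower in KO without overlap, as did 6.88% of all genes. The fitted level was also lower for 131 of the 184 long noncoding genes tested. Mir17hg, whose exon holds the whole miR-17 to miR-92a cluster printed above, stood at 3.45, 3.01 and 4.04 FPKM in KO and 5.44, 4.68 and 4.77 FPKM in WT. The groups did not overlap (log2 fold change -0.41, 95% interval -0.66 to -0.16, adjusted p = 0.715, 0.0256 without KO replicate 3). Mir17hg was called under only that 1 of 13 other settings. Mir142hg, host of a microRNA found across blood cells, stood at 3.22, 4.19 and 2.83 FPKM in KO and 4.73, 7.03 and 5.41 FPKM in WT, also without overlap (-0.60, adjusted p = 0.680). Mir155hg as a gene stood at 9.30, 9.10 and 13.9 FPKM in KO and 18.4, 11.7 and 14.8 FPKM in WT, with overlap (-0.44, adjusted p = 0.843). Over the wider annotation, 22 long noncoding genes spanned a microRNA hairpin on their strand, and in 16 the hairpin lay in an exon.

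Of the genes listed for T cells or inflammation, 9 were tested, 0 were called (1 at an unadjusted p under 0.05), and the median log2 fold change was -0.02. Gm19585, 153125 bases from Satb1, a chromatin organiser of T cells, was the one without overlap, at 17.7, 17.3 and 20.4 FPKM in KO and 13.3, 13.02 and 16.2 FPKM in WT (0.36, adjusted p = 0.797). Satb1 stood at 43.2, 43.9 and 62.6 FPKM in KO and 57.8, 57.4 and 53.7 FPKM in WT. Oip5os1, whose miR-7 site is shown above, stood at 8.61, 7.71 and 12.9 FPKM in KO and 11.3, 11.3 and 10.7 FPKM in WT (-0.20, adjusted p = 0.870; -0.40 and 0.0222 without KO replicate 3). The list for T cells or inflammation and that for chromatin or cytoplasmic roles share members, 2900097C17Rik and Oip5os1 among them. Of the genes listed for chromatin or cytoplasmic roles, 5 were tested, 0 were called (0 also at an unadjusted p under 0.05), and the median was -0.05. Of their 9 transcripts tested, those of smallest unadjusted p were both Dubr models above and single transcripts of Dancr and Lncpint. The Dancr transcript stood at 0, 1.92 and 1.60 FPKM in KO and 2.94, 3.92 and 4.29 FPKM in WT (adjusted p = 0.861 by limma). That of Lncpint stood at 0.114, 0.545 and 0.895 FPKM in KO and 1.44, 1.05 and 1.65 FPKM in WT (adjusted p = 0.873, a description because it reached 1 FPKM in WT alone).

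Erdr1 had the lowest adjusted p among long noncoding genes with a lower mean in KO. It stood at 11.1, 12.6 and 10.7 FPKM in KO and 18.9, 16.6 and 18.98 FPKM in WT, without overlap (-0.62, 95% interval -0.83 to -0.41, adjusted p = 0.0829; 0.0152 without KO replicate 3 and 0.0281 with the length trend removed). Gm47283, annotated on Y, stood at 8.32, 8.66 and 6.78 FPKM in KO and 11.2, 9.83 and 10.3 FPKM in WT (-0.36, adjusted p = 0.774). Both models lie in the pseudoautosomal region, where X and Y have the same sequence, so reads cannot be assigned to one of them.

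Gm43305, on chromosome 14, 23274 bases from Abhd4, stood at 5.57, 6.34 and 7.93 FPKM in KO and 4.06, 3.43 and 4.07 FPKM in WT (0.64, adjusted p = 0.309). The sense intronic Gm48161 stood at 1.80, 1.99 and 2.06 FPKM in KO and 0.958, 1.20 and 1.13 FPKM in WT (0.49, adjusted p = 0.349). Both were without overlap. Both had an adjusted p under the threshold without KO replicate 3 (0.0242 and 0.0375), a setting under which 10.2% of all genes were called.

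Leaving out KO replicate 3 moved the count of calls the most, from 3 to 25, and from 12 to 1106 over all genes. Relative to the WT mean, the median long noncoding gene differed by -0.11 and -0.13 (log2) in KO replicates 1 and 2 and by 0.01 in KO replicate 3. Gm16350 is the clearest case, at 2.23, 1.97 and 9.77 FPKM in KO and 4.98, 5.09 and 4.54 FPKM in WT: KO replicates 1 and 2 lay below and KO replicate 3 above every WT library. Gm20400 (0.562, 0.553 and 2.39 FPKM in KO, 1.38 to 1.48 FPKM in WT) had the same order. Malat1, Xist, Mir17hg and Oip5os1 were among the 17 genes called lower without that library, and AI506816 (0.26, adjusted p = 0.0204) among the 8 called higher.

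Transcripts opposite Th17 and T cell genes were scarce. The loci with a long noncoding transcript on the opposite strand that passed the detection rule included Il21, Ahr, Ikzf1, Il6ra and Cd3e, of 42 loci searched. Gm12534, opposite the cytokine gene Il21, stood at 3.40, 3.47 and 7.39 FPKM in KO and 6.18, 8.79 and 5.93 FPKM in WT (-0.52, adjusted p = 0.843 by gene). Il21 itself stood at 24.2, 26.3 and 41.8 FPKM in KO and 39.0, 37.5 and 36.4 FPKM in WT. For both genes KO replicates 1 and 2 lay below every WT library. KO replicate 3 lay above every WT library for Il21 and within the WT range for Gm12534.

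Gm48236 opposite Ahr, a ligand sensor of Th17 cells, stood at 0.434 to 0.713 FPKM (KO) and 0.502 to 0.683 FPKM (WT). Gm12000 opposite Ikzf1 stood at 0.412 to 0.999 and 0.790 to 1.23 FPKM, and Gm42809 opposite the receptor gene Il6ra at 0.745 to 1.74 and 0.856 to 1.38 FPKM. The labels do not state whether reads were counted by strand, and without strand the reads of a gene and its antisense partner cannot be told apart. Over all tested genes, 53 opposite-strand pairs joined 48 long noncoding genes to a tested coding gene; the noncoding gene was the lower of the 2 in 47 pairs, with medians of 1.62 and 14.6 FPKM. In 27 pairs (50.9%) the fold changes had the same sign, with a Spearman correlation of -0.12 across the 53 pairs, which share the same libraries. No partner was called.

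The authors' deposited table lists 31 of the 2084 long noncoding transcripts at a q-value under 0.05 (1.49%, against 1.43% of all transcripts above 0 in at least 3 libraries), 18 higher and 13 lower in KO. Of the 31, 23 did not reach 1 FPKM in 3 libraries, and 15 were listed at 0 in every library of one group. Among the 31, Gm42031, Gm49980 and Gm46620 have the 3 smallest q-values in the authors' deposited table, at 3.97e-25, 9.96e-17 and 3.96e-09. The scarce ones include 2 transcripts of E130317F20Rik that again differ in opposite directions: one stood at 0.334, 0.351 and 0.493 FPKM in KO and 0.126, 0.146 and 0.195 FPKM in WT, the other at 0.0460, 0 and 0 FPKM in KO and 0.453, 0.538 and 0.536 FPKM in WT. Gm49890, which holds miR-31, was listed at 0 in all KO libraries and at 0.0593, 0.123 and 0.0788 FPKM in WT. At these levels the files give no counts, so how many fragments stand behind a value is unknown.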

How the data were processed

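Bulk RNA was sequenced from 3 Sirt2 KO and 3 Sirt2 WT libraries, grouped by their titles. The authors deposited gene and transcript tables with 1 FPKM column per library, per the file headers, and a ratio (fold), a log2 fold, a p-value and a q-value per feature, which are the authors' own comparison in the deposited tables. Counts were not used here, so depth is unknown and no counting interval is given. Per the submitters' processing notes, cutadapt, FastQC, HISAT2, StringTie, DESeq2 and edgeR were used, without roles or versions. The build named there is mm9. The table's coordinates equal those of GENCODE M21 on GRCm38 for 73203 of the 73430 IDs it holds, so GRCm38 is used.

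The limma package (3.58.1, under R 4.3.3) was applied to log2(FPKM + 1), letting the variance follow the mean level, and p-values were adjusted by Benjamini-Hochberg over all features tested. Features needed 1 FPKM in at least 3 libraries. A call is an adjusted p under 0.05. The scripts were tested on simulated data. Replicate numbers were not used as pairs. Transcripts named are those of Malat1, Neat1 and Xist, the 10 most abundant, up to 6 in each direction of smallest p, up to 4 for each of 5 long noncoding lists and 3 protein lists, and those opposite or starting within 5 kb of a Th17 or T cell gene. Other genes named (Tug1, Peg13, Nono, Pspc1, Snhg5, Snhg17, Gm16350, Gm20400, Gm43305, E130317F20Rik, Gm49890 and similar) were chosen after their values were seen. The transcripts and lists were chosen with earlier results of these data known. Sequences were read from GENCODE M21 and RefSeq, and none is given for chromosome 18. Of the 2084 transcripts, 2046 had a sequence. The result at 1 of the loci searched is not reported here.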

Additional observations from a re-analysis of the deposited data

How the results depend on the processing

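The 3 calls among long noncoding genes became 1 with a filter of 5 FPKM and ranged from 0 to 25 when 1 library was left out. Calls over all genes went from 12 to 5 with the filter of 5 FPKM and ranged from 0 to 1106 without 1 library. Without a mean trend in the variance, 1 long noncoding transcript was called instead of 0 (Gm42031), and 25 transcripts in all instead of 8. Calls over all transcripts were 5 with a filter above 0 FPKM, 3 with the replicate block, and 4 to 7 without 1 library; long noncoding transcripts stayed at 0 calls without any 1 library. Malat1 ranged from -0.69 to -0.35 (log2) and Neat1 from -0.42 to -0.18 without 1 library. With the length trend removed Malat1 was -0.42, Neat1 -0.12 and Xist -0.57, and with 0.1 added Malat1 was -0.68, Neat1 -0.53 and Xist -0.78; none was called. Whole-gene Dubr ranged from -0.22 to 0.10 without 1 library, changing sign without KO replicate 2 (0.10) and without WT replicate 2 (0.02), and was called under no setting. The cause was not tested in any of these cases. Same-numbered KO and WT libraries deviated together at correlations of 0.00, 0.02 and -0.05, and differently numbered ones at -0.04 to 0.04. The labels do not pair them, and with 3 libraries a group these values cannot show whether libraries share an animal, culture or batch. With the replicate number as a block, 13 genes were called instead of 12 and the long noncoding genes called stayed at 3. Each group has 3 libraries, and depth is unknown.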
